A study of Mus musculus with 18 samples.

Results

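The genes of polyamine synthesis and turnover were followed in endothelial cells of the adult mouse brain cortex after an experimental stroke. The 9 members were found by symbol in the deposited table of 21638 genes, namely Odc1, Amd1, Amd2, Srm, Sms, Sat1, Oaz1, Oaz2 and Azin1. All 9 reached the count minimum for testing (10 or more in 3 or more libraries), as did 17094 genes in all. They were chosen with results of these data in view, and the rule itself names only symbols, so their levels and differences are given as a description. Stroke was produced by middle cerebral artery occlusion (MCAO), in which the main artery feeding the lateral cortex is blocked, and sham mice served as controls.

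There were 6 groups of 3 libraries. Sham mice and MCAO mice, both labelled wild type, each gave cells from the ipsilateral side, which is the injured side after MCAO, and from the contralateral side. The other groups were MCAO ipsilateral cells of Hdac2 ECKO mice and of Ezh2 ECKO mice. ECKO stands for deletion in endothelial cells, made with Hdac2lox/lox or Ezh2lox/lox alleles and Cdh5CreERT2, a tamoxifen-activated Cre recombinase driven by the endothelial Cdh5 promoter. Hdac2 encodes a histone deacetylase, and Ezh2 the methyltransferase of Polycomb repressive complex PRC2. All groups, sham and wild type included, carry the label of tamoxifen at 75 mg per kg. The floxed mice received 5 doses from day 0 to day 4, and brains were taken on day 7 of stroke. Whether the wild-type mice carried Cre, and whether each library came from 1 mouse or from pooled mice, is not said in the labels. Cells were sorted as CD31+, CD41- and CD45-, a gate that keeps endothelial cells and leaves out platelets and leukocytes. Libraries were made from ultra-low amounts of RNA with a SMART-Seq v4 PLUS kit and sequenced in pairs. The p-values given here measure only the spread between these libraries, since nothing says that they came from separate animals.

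Library totals ran from 25791401 to 57576255 counts. Levels are in CPM, the count of a gene per 1e6 of the library total after scaling by TMM, edgeR's correction for differences in composition. Summed over the 8 endothelial markers, the level was 7188 to 9950 CPM, with none at 0 in any library, against 2.20 to 19.8 CPM for 8 microglial and macrophage markers and 0.547 to 8.60 CPM for 6 neuronal markers. The sums were 28.9 to 83.8 CPM for 5 astrocyte, 12.0 to 171 CPM for 7 pericyte and smooth muscle, and 2.84 to 202 CPM for 8 oligodendrocyte markers. Neither deletion label was matched by a called fall of its gene. Hdac2 was at 76.8 ± 16.8 CPM (SD, n = 3) in Hdac2 ECKO and 82.9 ± 14.0 CPM (SD, n = 3) in MCAO ipsilateral libraries (adjusted p = 0.925, edgeR). Ezh2 was at 13.4 ± 5.76 CPM in its deletion group, against 6.44 ± 1.77 CPM after MCAO without deletion (adjusted p = 0.486, edgeR). A count over the whole gene does not check the deleted exons, so every direction drawn below for these groups is for libraries labelled as deletions. Diffuse background was summed over 1466 olfactory and vomeronasal receptor genes, per 1e6 of the library total without TMM scaling. Libraries MCAO contralateral 1 and Ezh2 ECKO 2 stood apart in it, with 1889 and 2083 against 152 to 716 in the other 16. Summed over 6 red cell markers, the level was 70.5 to 671 CPM in Ezh2 ECKO libraries, with at most 1 marker at 0, and 19220 to 297900 CPM in all other groups.

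Polyamines (putrescine, spermidine and spermine) are small, positively charged molecules that bind nucleic acids and are needed for growth and translation. Odc1 makes putrescine from ornithine, and Amd1 makes the aminopropyl donor that Srm and Sms use to build spermidine and spermine. Sat1 acetylates spermidine and spermine, which marks them for export or oxidation. The antizymes Oaz1 and Oaz2 bind ornithine decarboxylase and lead it to the proteasome, and Azin1 binds antizyme and so protects the decarboxylase. In blood vessels the pathway is best known for supporting endothelial growth.

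Amd1 and Amd2 are near-identical genes for S-adenosylmethionine decarboxylase on chromosome 10, and they are shown first because their similarity sets how their counts can be read. Amd1 (chr10:40287458-40302188, minus strand, mm10) has a transcript of 3204 bases in 8 exons in the GENCODE annotation. Amd2 (chr10:35708675-35711892, minus strand) has one of 3218 bases in 1 exon, the form of an intronless copy. The aligned bases of these transcripts were 99.7% identical, with 11 mismatches. Their coding sequences, each of 1005 bases, differed at 1 base, G796C, counted from the first base of the start codon with the Amd1 base first. The stretch around it is printed from the annotated transcripts, with that base in capitals.

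Amd1 coding bases 766 to 825: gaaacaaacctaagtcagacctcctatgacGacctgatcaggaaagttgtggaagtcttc

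Amd2 coding bases 766 to 825: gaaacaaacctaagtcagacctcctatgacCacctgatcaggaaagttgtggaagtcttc

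The sequences ahead of the genes were unlike each other. Over the 250 bases before the RefSeq start sites (build GRCm38.p6) the longest run that Amd1 and Amd2 shared was 7 bases. They are printed with that of Sat1, the enzyme of polyamine breakdown, because the values below turn on these genes. Capitals mark matches on either strand to 4 motifs: the E-box CACGTG bound by Myc, the CCAAT box, the TATA element TATANAA and the GC box GGGCGG. TGACGTCA, the cyclic AMP response element, was also searched and had no match in these windows.

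Amd1 upstream (chr10:40302189-40302438, minus strand): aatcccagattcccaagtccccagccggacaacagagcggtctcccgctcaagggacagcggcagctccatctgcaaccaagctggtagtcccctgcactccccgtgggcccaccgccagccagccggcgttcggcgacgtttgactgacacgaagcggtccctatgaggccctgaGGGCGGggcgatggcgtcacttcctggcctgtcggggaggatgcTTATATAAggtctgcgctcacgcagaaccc

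Amd2 upstream (chr10:35711892-35712141, minus strand): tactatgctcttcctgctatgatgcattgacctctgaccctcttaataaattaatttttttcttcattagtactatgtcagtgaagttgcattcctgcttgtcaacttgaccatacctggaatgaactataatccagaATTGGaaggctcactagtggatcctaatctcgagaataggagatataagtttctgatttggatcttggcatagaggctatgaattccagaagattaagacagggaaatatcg

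Sat1 upstream (chrX:155216450-155216699, minus strand): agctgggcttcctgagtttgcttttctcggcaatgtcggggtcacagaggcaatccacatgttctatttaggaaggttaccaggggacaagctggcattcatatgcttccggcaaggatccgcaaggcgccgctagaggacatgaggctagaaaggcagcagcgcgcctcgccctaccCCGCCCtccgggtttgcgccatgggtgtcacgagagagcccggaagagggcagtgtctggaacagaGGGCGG

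Amd1 had 2 overlapping matches to the TATA element just ahead of its start and 1 GC box. Amd2 had 1 CCAAT box and neither of those. Sat1 had 2 GC boxes. Among 32851 RefSeq windows of 300 bases, 11.3% held the TATA element, 35.7% the GC box, 37.4% CCAAT, 7.15% the E-box and 1.79% the cyclic AMP response element. RefSeq windows were found for 7 of the 9 members, the others being Srm and Azin1. The E-box was found in 1 of the Sms windows and in none of Odc1, Amd1, Amd2, Sat1, Oaz1 or Oaz2. A match here is a description of the letters and not a binding site.

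The Amd1 and Amd2 rows moved in parallel. The ratio of Amd1 to Amd2 counts lay between 1.94 and 2.30 in all 18 libraries, while Amd1 counts ran from 9604 to 49603. How the authors' counting divided reads between the copies is uncertain, so the rows are reported as a sum, and neither row is evidence for the other.

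By level per length, the members fell into a high and a low set. Over the 18 libraries the mean was 217 CPM per kb for Amd1, 181 for Oaz1, 170 for Sat1 and 111 for Amd2. The Amd1 and Amd2 values are those of the deposited rows, and expression of the Amd2 copy itself is not shown by them. Of the 150-base windows of the Amd2 transcript, 61.6% also occur in that of Amd1. The order within these 4 rows is loose, since Amd1 was above Oaz1 in 11 of 18 libraries and Oaz1 above Sat1 in 8. Next came Oaz2 at 13.0 CPM per kb, below Amd2 in 18 of 18 libraries, and Azin1 at 12.9, which Oaz2 exceeded in 10 of 18. The synthases and Odc1 were lowest, with Srm at 6.62, Odc1 at 5.93 and Sms at 2.76 CPM per kb. Odc1, often called the rate-limiting enzyme of the pathway, was thus among the least abundant of its transcripts in these cells. The members also differed in how closely libraries of 1 group agreed. The within-group SD of log2 CPM was 0.30 for Sat1, 0.39 for Amd2 and 0.43 for Amd1, below the median of 0.57 over the 7814 genes whose mean reached 10 CPM. It was 0.71 for Azin1, 0.82 for Oaz2, 0.91 for Oaz1, 0.92 for Odc1, 1.05 for Sms and 2.06 for Srm.

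**Figure D1:**
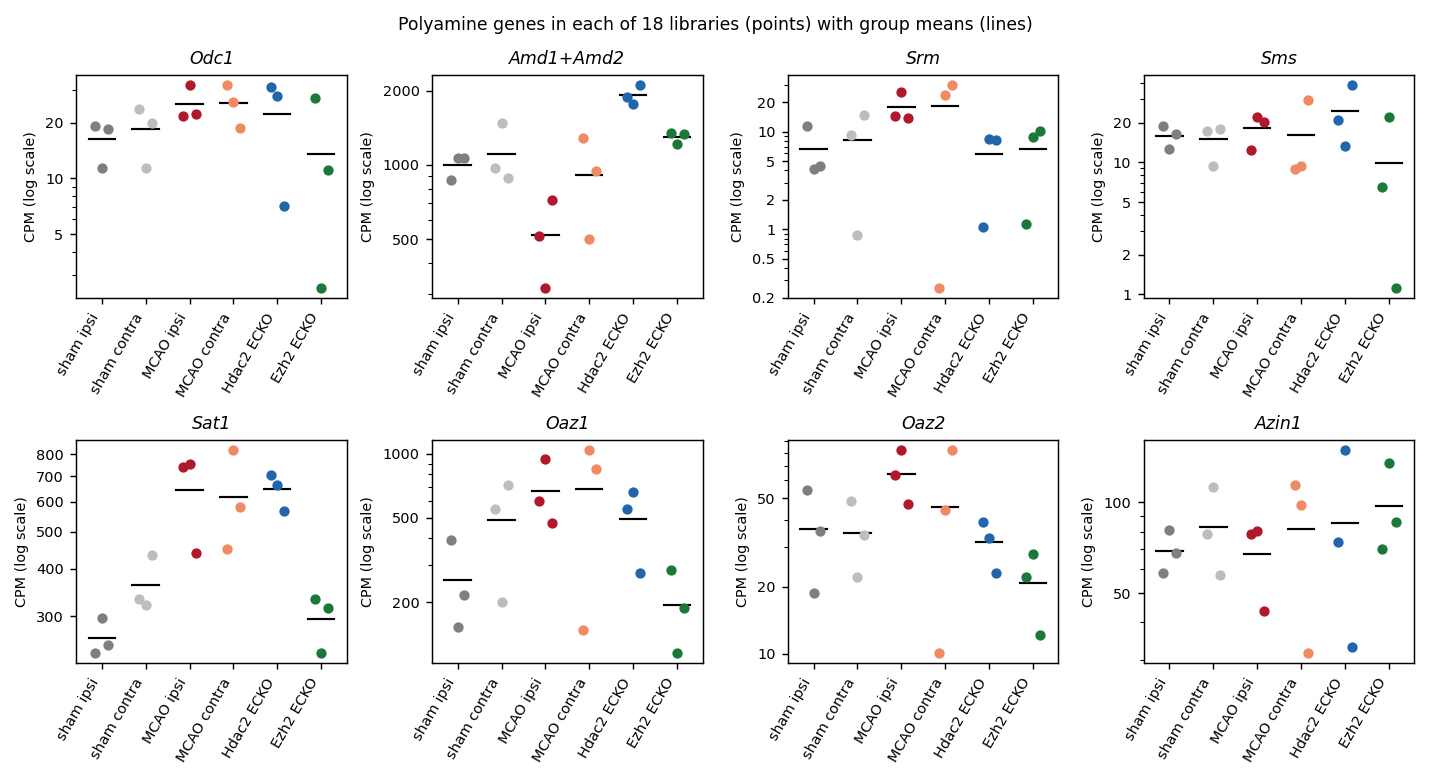
Level of each member in CPM (vertical axis, log scale) in each of the 18 libraries, with 1 point per library and a line at the mean of each group of 3. Amd1 and Amd2 are summed. The Hdac2 ECKO libraries hold the 3 highest sums, from 1759 to 2113 CPM, and Sat1 lies between 441 and 821 CPM in all MCAO and Hdac2 ECKO libraries but at or below 436 CPM in all sham and Ezh2 ECKO libraries.

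The sum of Amd1 and Amd2 ran from 318 to 2113 CPM over the 18 libraries. In sham ipsilateral libraries it was 866, 1070 and 1066 CPM, and in MCAO ipsilateral libraries 515, 318 and 724 CPM. All 3 MCAO ipsilateral libraries lay under all 3 sham ipsilateral ones, with a difference of -0.95 ± 0.35 on the log2 scale (SE) that did not pass the test across all genes (adjusted p = 0.630, edgeR). With the receptor background as a covariate it was -0.78 (adjusted p = 0.664, edgeR). In bulk samples such as these, fewer cells of a kind and less RNA per cell cannot be told apart.

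On the contralateral side the groups overlapped. The sum was 970, 1475 and 887 CPM in sham libraries and 1282, 501 and 949 CPM after MCAO, a log2 difference of -0.29 ± 0.35 (adjusted p = 0.929, edgeR). Whether the difference between MCAO and sham itself differed between the sides was not tested. Within MCAO the ipsilateral libraries were lower than the contralateral ones by a log2 difference of -0.81 ± 0.35, again with overlap (adjusted p = 1, edgeR).

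In the Hdac2 ECKO libraries the sum was 1891, 1759 and 2113 CPM, above every library of the other groups. These levels rest on TMM factors of 0.670, 0.777 and 1.10, against 0.975, 1.34 and 1.07 in Ezh2 ECKO libraries. Whether single libraries stay apart from those of other groups without this scaling was not tested. The mean was 1921 ± 179 CPM (SD, n = 3) against 519 ± 203 CPM in MCAO ipsilateral libraries, 3.70-fold higher. The log2 difference of 1.89 ± 0.36 missed the threshold (adjusted p = 0.0882, edgeR). By p it ranked at place 7 in a list that also held its own rows, Amd2 at 6 and Amd1 at 8. The alternatives gave adjusted p from 0.00132 to 0.670, with 4 of 13 under 0.05. One of those 4 was the fit without MCAO ipsilateral 3, the highest library of its group (adjusted p = 0.0384, edgeR). Another had the receptor background as a covariate (log2 difference 1.80, adjusted p = 0.01895, edgeR).

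In the Ezh2 ECKO libraries the sum was 1347, 1213 and 1336 CPM, the tightest group, with a mean of 1299 ± 74.6 CPM. It was 2.50-fold higher than in MCAO ipsilateral libraries, without overlap, and also missed the threshold (log2 difference 1.32 ± 0.35, adjusted p = 0.0573, edgeR). The alternatives gave adjusted p from 0.00851 to 0.304, with 5 of 13 under 0.05, among them the fit without MCAO ipsilateral 3 (adjusted p = 0.0410, edgeR). With the receptor background as a covariate the log2 difference was 1.08 and did not pass (adjusted p = 0.1315, edgeR). Both comparisons share the 3 MCAO ipsilateral libraries, which were the lowest group for this sum, so they are not separate evidence. Compared directly, Hdac2 ECKO libraries were 1.48-fold above Ezh2 ECKO libraries, with no overlap (log2 difference 0.56 ± 0.35, adjusted p = 0.591, edgeR).

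Of the members, Sat1 had the smallest spread between replicates. It was 240, 296 and 253 CPM in sham ipsilateral libraries and 742, 753 and 441 CPM in MCAO ipsilateral libraries, 2.45-fold higher (log2 difference 1.29 ± 0.30, adjusted p = 0.412, edgeR). On the contralateral side it was 334, 321 and 436 CPM in sham and 452, 821 and 581 CPM after MCAO, 1.70-fold higher (log2 difference 0.77 ± 0.30, adjusted p = 0.920, edgeR). On each side all 3 MCAO libraries lay above all 3 sham libraries.

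With both sides averaged, Sat1 was 2.04-fold higher after MCAO, and the 6 MCAO libraries all lay above the 6 sham libraries. Pericyte and smooth muscle markers were lower in the MCAO libraries on each side, without overlap, and their part was not tested. The log2 difference was 1.03 ± 0.21 and just missed the threshold (adjusted p = 0.0569, edgeR). Over 19 alternatives its adjusted p ran from 1.432e-04 to 0.222, with 6 under 0.05. It passed without MCAO ipsilateral 3 (adjusted p = 0.0222, edgeR) and without MCAO contralateral 1, a library of high background (adjusted p = 0.0101, edgeR). These were the MCAO libraries with the lowest Sat1 on their sides. The edgeR fit took the sides as separate libraries, and the labels do not say whether they shared mice.

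Sat1 levels did not overlap between the deletion groups. In Hdac2 ECKO libraries it was 707, 666 and 568 CPM, within the MCAO ipsilateral range, with a log2 difference of 0.00 ± 0.30 (adjusted p = 0.998, edgeR). In Ezh2 ECKO libraries it was 333, 241 and 315 CPM, under every MCAO ipsilateral library, a 2.18-fold difference (log2 difference -1.12 ± 0.30, adjusted p = 0.0584, edgeR). Sham ipsilateral libraries were at 240, 296 and 253 CPM, and Ezh2 ECKO was not tested against sham. MCAO against sham and Ezh2 ECKO against MCAO use the same 3 MCAO ipsilateral libraries. For every gene here, these 2 ipsilateral comparisons are therefore not separate evidence. The direct comparison of Hdac2 ECKO with Ezh2 ECKO had no overlap, with Sat1 2.18-fold higher in Hdac2 ECKO (log2 difference 1.13 ± 0.30, adjusted p = 0.142, edgeR). Without MCAO ipsilateral 3, the difference of Ezh2 ECKO from MCAO ipsilateral libraries passed the threshold (adjusted p = 0.0360, edgeR). Over 13 alternatives its adjusted p ran from 0.0178 to 0.286, with 3 under 0.05. With the receptor background as a covariate it was -0.85 (adjusted p = 0.154, edgeR).

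**Figure D2:**
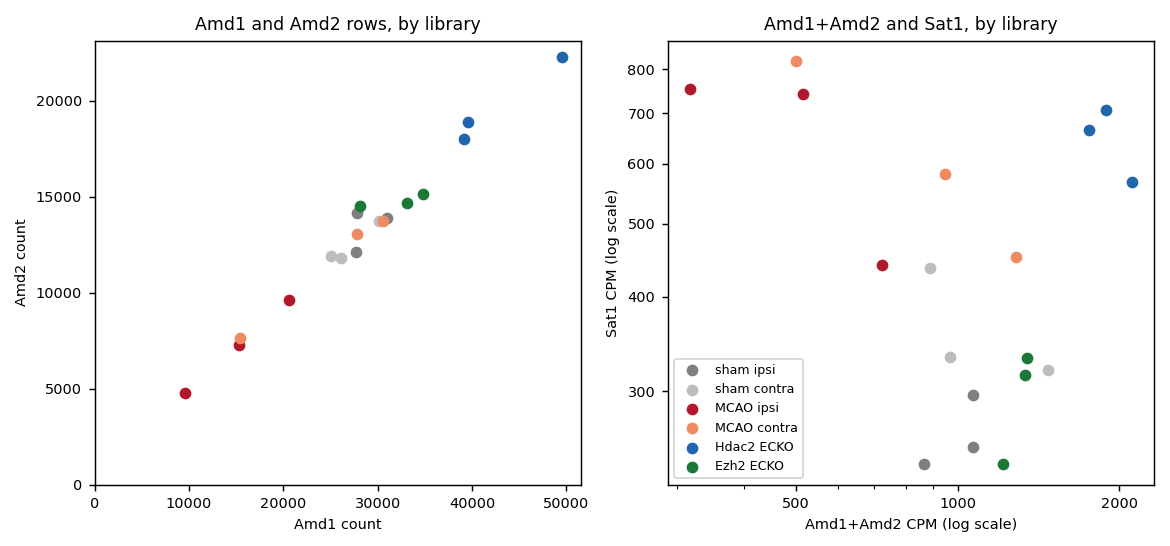
Left, counts of the Amd1 row (horizontal) against the Amd2 row (vertical), 1 point per library, which lie near 1 line. Right, the Amd1 and Amd2 sum against Sat1, both in CPM on log scales. MCAO ipsilateral libraries hold sums of 318 to 724 CPM at the left, Hdac2 ECKO libraries sit at the upper right, and Ezh2 ECKO libraries lie near the sham libraries at 241 to 333 CPM of Sat1.

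Odc1, which makes putrescine, was low and variable. Its levels were 19.2, 11.4 and 18.6 CPM in sham ipsilateral and 21.6, 32.0 and 22.3 CPM in MCAO ipsilateral libraries, without overlap (log2 difference 0.63 ± 0.63, adjusted p = 0.828, edgeR). On the contralateral side they were 23.8, 11.4 and 19.9 CPM in sham and 31.9, 25.8 and 18.6 CPM after MCAO, which overlap. In each deletion group 1 library was far under the others. Odc1 was 31.3, 28.0 and 7.12 CPM in Hdac2 ECKO libraries. It was 27.0, 2.56 and 11.0 CPM in Ezh2 ECKO libraries, and the lowest of these, replicate 2, was the library of highest background. Against MCAO ipsilateral libraries the log2 differences were -0.19 ± 0.63 (adjusted p = 0.936) and -0.90 ± 0.63 (adjusted p = 0.420, edgeR), so no direction is given for Odc1.

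Srm, spermidine synthase, had the widest spread of the members. Its levels were 11.5, 4.10 and 4.50 CPM in sham ipsilateral and 14.4, 25.2 and 13.7 CPM in MCAO ipsilateral libraries, all higher (log2 difference 1.41 ± 1.10, adjusted p = 0.792, edgeR). In MCAO contralateral libraries it was 0.251, 23.9 and 30.2 CPM, the lowest value falling in the library of high background, where the count was 8. Sham contralateral libraries gave 9.25, 0.874 and 14.7 CPM. Hdac2 ECKO libraries gave 1.06, 8.37 and 8.29 CPM and Ezh2 ECKO libraries 1.13, 8.82 and 10.1 CPM, each group wholly under the MCAO ipsilateral libraries. Neither difference passed the test, at log2 values of -1.59 ± 1.11 (adjusted p = 0.663) and -1.41 ± 1.10 (adjusted p = 0.464, edgeR). With the background share as a covariate, the Hdac2 ECKO value was -0.87 and the Ezh2 ECKO value turned to 0.19 (adjusted p = 0.840 and 0.978). The ipsilateral value for MCAO against sham was 0.80 in that fit (adjusted p = 0.991).

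Sms, spermine synthase, overlapped between groups in all 8 comparisons. Its group means ran from 9.93 ± 10.9 CPM in Ezh2 ECKO to 24.4 ± 13.1 CPM in Hdac2 ECKO libraries, whose single values were 6.53, 22.1 and 1.12 CPM and 20.9, 13.3 and 38.8 CPM. Means in the other 4 groups lay between 14.9 and 18.3 CPM.

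The antizyme Oaz1, the main brake on ornithine decarboxylase, was abundant but scattered. It was 395, 153 and 217 CPM in sham ipsilateral and 596, 944 and 473 CPM in MCAO ipsilateral libraries, 2.63-fold higher without overlap (log2 difference 1.40 ± 0.58, adjusted p = 0.645, edgeR). With the background share as a covariate this was 0.72 (adjusted p = 0.758). On the contralateral side the values overlapped widely, with 551, 201 and 711 CPM in sham and 148, 1042 and 848 CPM after MCAO. The value of 148 CPM was again in MCAO contralateral 1.

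In Ezh2 ECKO libraries Oaz1 was 283, 115 and 187 CPM, wholly under the MCAO ipsilateral libraries, a 3.44-fold difference that did not pass (log2 difference -1.78 ± 0.58, adjusted p = 0.108, edgeR). With the background share as a covariate this was -0.64 (adjusted p = 0.469). In Hdac2 ECKO libraries it was 548, 660 and 274 CPM and overlapped (log2 difference -0.44 ± 0.57, adjusted p = 0.819, edgeR). Oaz2, the second antizyme, gave 63.8, 82.2 and 47.0 CPM in MCAO ipsilateral libraries. All 3 Hdac2 ECKO libraries, at 38.9, 33.2 and 23.1 CPM, lay below these (log2 difference -1.02 ± 0.56, adjusted p = 0.564, edgeR). All 3 Ezh2 ECKO libraries did so too, at 22.1, 27.9 and 12.1 CPM (log2 difference -1.64 ± 0.57, adjusted p = 0.126, edgeR). With the background share as a covariate the Ezh2 ECKO value for Oaz2 was -0.67 (adjusted p = 0.675). In sham ipsilateral libraries Oaz2 was 54.4, 18.7 and 35.5 CPM, which overlapped with MCAO ipsilateral values.

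Azin1, the antizyme inhibitor, overlapped between groups in all 8 comparisons. It was at 67.4 ± 20.5 CPM in MCAO ipsilateral and 69.0 ± 11.2 CPM in sham ipsilateral libraries, a log2 difference of -0.03 ± 0.49 (adjusted p = 0.988, edgeR). Group means ran up to 97.0 ± 33.7 CPM in Ezh2 ECKO libraries.

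Read as counts, 0 of the 9 members passed an adjusted p of 0.05 in any of the 8 comparisons by edgeR, so none is said to have changed. That has to be read against how few genes passed at all. On the ipsilateral side 0 of the 17094 genes tested (0%) passed between MCAO and sham. In the counts that follow, Amd1 and Amd2 stand as their sum, which leaves 8 members. At an unadjusted p under 0.05, 3 of 8 passed (Sat1 and Oaz1 higher, the Amd sum lower) against 7.08% of all genes. In the same comparison 5 of 8 did not overlap, against 27.7% of all genes, and the members' median log2 difference was 0.73 against -0.09 over all genes. On the contralateral side, where 0% of genes passed, 1 member had an unadjusted p under 0.05 (4.41% of all genes), and 1 did not overlap (9.65%). With the sides averaged 26 genes passed (0.152%), and 3 members against 9.09% of all genes had an unadjusted p under 0.05. Only Sat1 among the members did not overlap there (1.42% of all genes). Between the sides of MCAO 0% of genes passed. Of the members, the Amd sum alone had an unadjusted p under 0.05 there (3.08% of all genes), and 0 did not overlap (5.37%). Between the sham sides 0% passed, and 0 members had an unadjusted p under 0.05 (1.85% of all genes). Sat1, lower on the ipsilateral side, was the 1 member without overlap between them (15.4% of all genes).

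Between Hdac2 ECKO and MCAO ipsilateral libraries 2 genes passed (0.0117%), neither a member. The Amd sum alone had an unadjusted p under 0.05 (9.85% of all genes), and 3 members did not overlap (19.9%). Between Ezh2 ECKO and MCAO ipsilateral libraries 250 genes passed (1.46%), 39 of them higher. With the RLE scaling, which moved the median of all genes by 0.19 on the log2 scale, 368 passed, 119 of them higher. Here 4 members had an unadjusted p under 0.05 (19.2% of all genes), namely the Amd sum higher and Sat1, Oaz1 and Oaz2 lower, and 5 members did not overlap (29%). The members' median log2 difference was -1.01 against 0.17 over all genes. This comparison shares its MCAO ipsilateral libraries with that of MCAO against sham, so the medians of the 2 are not separate evidence. Between Hdac2 ECKO and Ezh2 ECKO 21 genes passed (0.123%), and Sat1 and Oaz1 had an unadjusted p under 0.05 (11.2% of all genes). The Amd sum and Sat1 did not overlap between them (12.1%). DESeq2 passed more genes everywhere. Among members it passed Sat1 for MCAO against sham on the ipsilateral side, where 69 of the 17094 genes passed. It also passed Sat1 over both sides, where 337 genes passed. For Hdac2 ECKO it passed the Amd sum, where 244 genes passed. For Ezh2 ECKO it passed the Amd sum, Sat1 and Oaz1, where 1642 genes passed. Between the deletions it passed Sat1, where 659 genes passed.

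**Figure D3:**
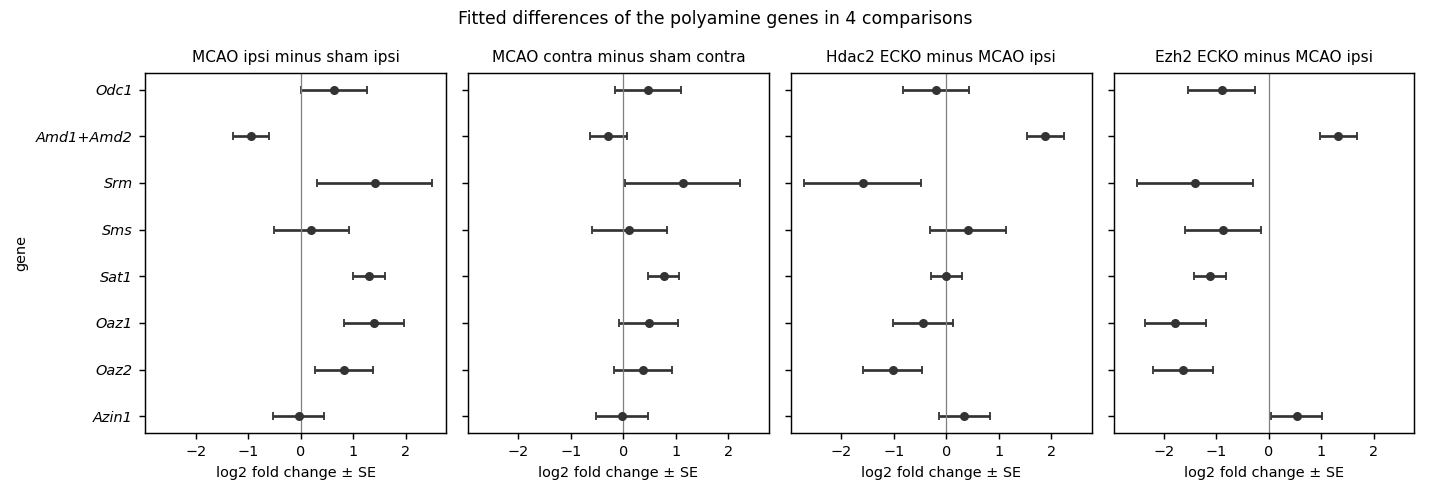
Fitted log2 fold changes of the members (horizontal axis, point with its standard error) in 4 comparisons, from 1 fit to all 18 libraries. The sum of Amd1 and Amd2 is at -0.95 for MCAO against sham on the ipsilateral side and at 1.89 and 1.32 for the deletion groups, while Sat1 is at 1.29, 0.00 and -1.12 in the same panels.

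The wider pathway was read from 36 other genes, all in the table, of which 32 passed the count minimum. Of the 32, 0 passed in 7 of the 8 comparisons by edgeR, and 2 passed between Ezh2 ECKO and MCAO ipsilateral libraries, both lower, against 1.23% of all genes lower there. Their median log2 difference in that comparison was -0.33, against 0.17 over all genes.

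Eif5a, the translation factor that carries hypusine, an amino acid made from spermidine, fell in Ezh2 ECKO libraries. It was 260, 448 and 206 CPM in MCAO ipsilateral libraries and 32.4, 23.4 and 34.9 CPM in Ezh2 ECKO libraries, 10.1-fold lower. The log2 difference was -3.33 ± 0.65 (adjusted p = 0.0291, edgeR). The call was lost with the background share as a covariate (log2 -2.23, adjusted p = 0.112). Leaving out MCAO ipsilateral 1 or 2, or Ezh2 ECKO 2 or 3, also took it to adjusted p of 0.0632, 0.167, 0.0773 and 0.0989. In sham ipsilateral libraries Eif5a was 148, 63.7 and 73.9 CPM, all under the MCAO ipsilateral ones (log2 difference 1.68 ± 0.61, adjusted p = 0.617, edgeR). Hdac2 ECKO libraries were at 131, 108 and 114 CPM, also all under them (log2 difference -1.37, adjusted p = 0.479, edgeR).

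Slc3a2 is the heavy chain of amino acid exchangers and has been described in polyamine export. It fell in the same comparison, from 529, 719 and 415 CPM to 179, 122 and 223 CPM (log2 difference -1.67 ± 0.36, adjusted p = 0.0324, edgeR). This call was lost too with the background share as a covariate (log2 -1.16, adjusted p = 0.112). It was also lost without MCAO ipsilateral 1 (0.0924) or 2 (0.188) and without each Ezh2 ECKO library in turn (0.0552, 0.0946 and 0.0978). Hdac2 ECKO libraries were at 194, 257 and 248 CPM, all under the MCAO ipsilateral ones (adjusted p = 0.338, edgeR).

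**Figure D4:**
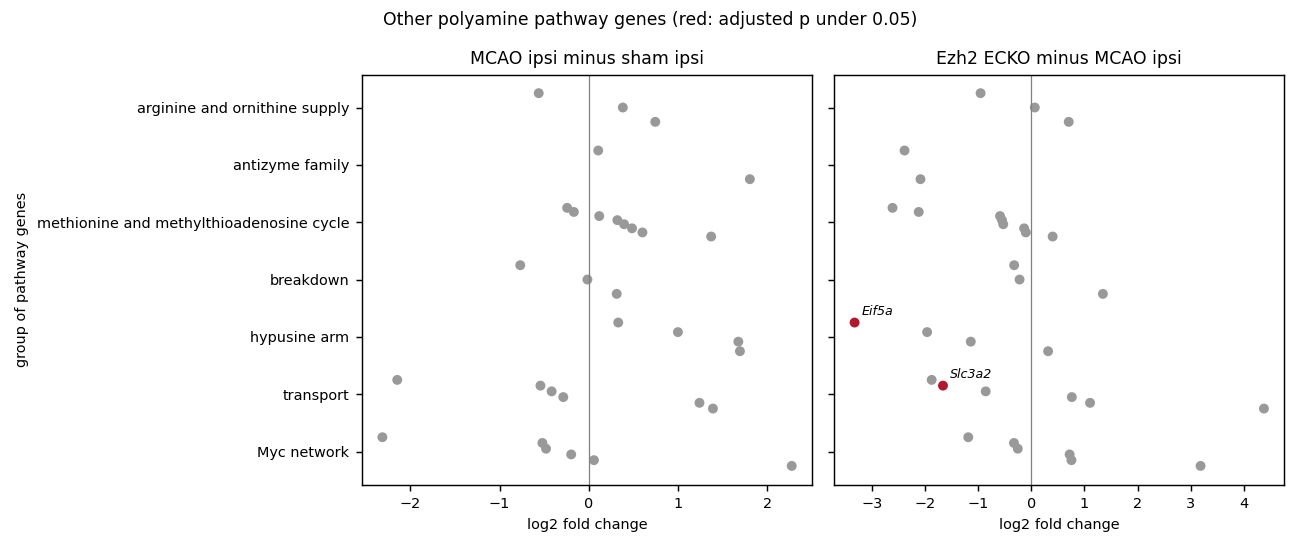
Log2 fold changes (horizontal axis) of the 32 other pathway genes tested, grouped by role (vertical axis), in 2 comparisons, with genes past an adjusted p of 0.05 in red. Eif5a at -3.33 and Slc3a2 at -1.67 are red, both in the comparison of Ezh2 ECKO with MCAO ipsilateral libraries.

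No other pathway gene passed in these comparisons. For MCAO against sham on the ipsilateral side, the median log2 differences of the 7 roles ran from -0.35 (transport) to 1.34 (hypusine arm), against -0.09 over all genes. The 4 hypusine genes also had a median of -0.67 between the sham sides, against 0.07 over all genes, and one of 0.51 for MCAO against sham on the contralateral side. The oxidases Smox and Paox, which take polyamines back a step, gave log2 differences of -0.02 ± 0.54 and 0.31 ± 0.96 for MCAO against sham on the ipsilateral side. Arg2, which supplies ornithine, was 10.5, 8.37 and 9.42 CPM in sham ipsilateral and 16.9, 17.0 and 13.5 CPM in MCAO ipsilateral libraries, without overlap (adjusted p = 0.782, edgeR). In Ezh2 ECKO libraries it was 8.74, 6.60 and 9.03 CPM, all lower than MCAO ipsilateral (adjusted p = 0.329, edgeR). Myc, a known activator of Odc1, was scarce, from 0 to 12.8 CPM, and its MCAO ipsilateral values overlapped with those of sham ipsilateral, Hdac2 ECKO and Ezh2 ECKO libraries. It had no count in sham contralateral 2 or Hdac2 ECKO 2. If each count is a separate event, a count of 0 allows up to 0.101 and 0.0903 CPM there, a limit for counting error only. Most counts from 1 to 20 were even, so the limit may be higher.

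Markers of other cells moved with some of these results. In the Ezh2 ECKO group, where Sat1, Oaz1, Oaz2 and Eif5a were low, the 6 red cell markers summed to 70.5 to 671 CPM, against 38270 to 65450 CPM in MCAO ipsilateral libraries, and 1 marker at most was at 0 in either. In Hdac2 ECKO libraries, where the Amd1 and Amd2 sum was highest, they summed to 49290 to 297900 CPM. In Hdac2 ECKO 1, 2 and 3 the red cell markers were at 297900, 251400 and 49290 CPM. The Amd1 and Amd2 sum was 1891, 1759 and 2113 CPM in the same order. The olfactory and vomeronasal receptor background, per 1e6 of the total without TMM scaling, was 268 to 2083 in Ezh2 ECKO and 154 to 297 in MCAO ipsilateral libraries. In Hdac2 ECKO 1, 2 and 3 it was 198, 325 and 639. Beside the MCAO differences on the ipsilateral side, the 8 microglial and macrophage markers summed to 4.00 to 7.14 CPM in sham and 8.82 to 19.6 CPM in MCAO libraries, with up to 2 markers at 0 in each group. The 7 pericyte and smooth muscle markers summed to 96.6 to 147 CPM in sham, with up to 1 at 0, and 36.7 to 88.1 CPM in MCAO libraries, with up to 3 at 0. Contralaterally, the pericyte and smooth muscle markers summed to 86.2 to 171 CPM in sham, with none at 0, and 12.0 to 59.8 CPM in MCAO libraries, with up to 1 at 0. The 5 astrocyte markers there summed to 54.4 to 83.8 CPM in sham, with up to 2 at 0, and 32.9 to 52.3 CPM in MCAO libraries, with up to 1 at 0. Between the sham sides, where Sat1 did not overlap, the sum of the 6 red cell markers did not overlap either. It was 19220 to 59000 CPM ipsilaterally and 72030 to 129600 CPM contralaterally, with at most 1 marker at 0. The part of red cells, microglia, pericytes and astrocytes in these results was not tested.

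The genes most like the members in pattern were taken over 18 libraries by Pearson correlation of log2 CPM among 7814 genes, as a description. All libraries share the same 6 groups, so group differences enter every value. For Odc1 these were Adgra2 (r = 0.907), Atxn7l1 (r = 0.899) and Pagr1a (r = 0.881). For the Amd1 and Amd2 sum they were Efnb2 (r = 0.910), Nr4a2 (r = 0.872) and Wls (r = 0.868). For Sat1 they were H3f3b (r = 0.894), Laptm4a (r = 0.894) and Bnip3 (r = 0.883).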

How the data were processed

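RNA of sorted brain endothelial cells was sequenced in 18 libraries, 3 in each of 6 groups taken from the sample titles. The submitters' processing notes name FastQC, cutadapt, STAR, featureCounts and DESeq2 and the build mm10, with no role or order, and versions, annotation, strand setting and handling of reads shared by near-identical genes are not given in the sources used here. The authors deposited counts per gene in a table named as normalized. The deposited counts were whole numbers with unequal totals, and between 77.3% and 89.4% of values from 1 to 20 were even, so they were treated as unscaled; that no scaling was applied is inferred from the values. The deposited gene length column was used for CPM per kb. All value columns were matched to a sample, with 0 left over.

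The 17094 genes that reached a count of 10 in 3 or more libraries were tested with edgeR 4.0.16 in R 4.3.3 (TMM, quasi-likelihood F-test, 1 fit of 6 group means), with Benjamini-Hochberg adjustment over all of them, and called under 0.05. The standard error (SE) is the size of the log2 difference over the square root of F. The sum of Amd1 and Amd2 was tested in a second fit in its place. The members, the 36 pathway genes, the marker lists and the tests were chosen with earlier results of these data known. Named genes were all members, every other pathway gene called in any comparison, and Myc, Smox, Paox and Arg2 whatever their values, with Hdac2 and Ezh2 as the label check and the 3 genes most correlated with Odc1, the Amd1 and Amd2 sum and Sat1 (prior count 2, mean of at least 10 CPM). Alternatives were RLE scaling, no count minimum, DESeq2 1.42.0, limma 3.58.1 voom with sample weights, only the groups compared, the replicate number as a block, the receptor background as a covariate, and leaving out each library. Transcripts were aligned with Biopython 1.88, and promoters came from RefSeq.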

Additional observations from a re-analysis of the deposited data

How the results depend on the processing

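No member passed in the 8 comparisons by edgeR, and this count depended on the tool and scaling. Counts of genes passed (all genes, then members) follow, and the cause of each change was not tested unless fewer samples made it. In this section members are counted as 9 rows, with Amd1 and Amd2 counted apart although they are not separate evidence. For MCAO against sham on the ipsilateral side they were 2 genes with no count minimum, 69 (member Sat1, 1) with DESeq2, 1273 (4 members) with voom, 1 with the background covariate and 74 with only the groups compared. On the contralateral side they were 26 with DESeq2 and 7 with voom. Between the MCAO sides DESeq2 passed 6, and between the sham sides DESeq2 passed 6 and voom 1. With both sides averaged they were 40 (1 member) with RLE, 337 (1) with DESeq2, 2199 (5) with voom, 4 with the replicate block and 99 (1) with the background covariate. For Hdac2 ECKO they were 4 with RLE, 244 (2) with DESeq2, 32 (2) with voom, 10 (2) with the covariate and 0 with only the groups compared. For Ezh2 ECKO the members were 2 with RLE, and the counts 1642 (4) with DESeq2, 377 (3) with voom, 12 with the replicate block, 13 with the covariate and 485 (3) with only the groups compared. For Hdac2 ECKO against Ezh2 ECKO they were 38 with no minimum, 659 (1) with DESeq2, 4 with voom, 9 with the replicate block and 54 with the covariate.

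Leaving out each library gave 0 to 1 genes for MCAO contralateral against sham, 0 to 266 (members 0 to 1) with both sides averaged, 0 to 18 (0 to 2) for Hdac2 ECKO, 5 to 298 (0 to 3) for Ezh2 ECKO and 9 to 73 (0 to 0) between the deletions; the other 3 comparisons stayed at 0 to 0. The 266 came without MCAO contralateral 1 and the 18 without MCAO ipsilateral 3. In the counts of signs, Amd1, Amd2 and their sum were each included. Of 45 member differences over 1 SE, 2 of 633 alternative values had the other sign, both with the background covariate. They were Srm for Ezh2 ECKO at 0.19 and Oaz2 between the deletions at -0.067. Of 35 within 1 SE, 82 of 467 had the other sign and 0 of those 467 passed. RLE moved the median of all genes by over 0.1 on the log2 scale in 4 comparisons, by 0.13 (MCAO contralateral against sham), -0.16 (MCAO sides), 0.19 (Ezh2 ECKO) and -0.11 (between the deletions). Replicate numbers gave no clear pairing. The 45 same-number pairs over all groups had residual correlations of -0.45 to 0.30, and 2 of 18 libraries correlated best with their own number. Same-number pairs of the 2 sides gave -0.17 to 0.27 in MCAO and -0.04 to 0.21 in sham, with 3 pairs each. So few pairs cannot show whether the sides came from the same mice, so the block is only an alternative. With it, the Ezh2 ECKO calls of Eif5a and Slc3a2 were lost (both adjusted p = 0.0558, edgeR). Spread between libraries, widest for Srm among the members, and the few counts of Myc limit what could be seen.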
